A study of Homo sapiens with 4 samples.

Results

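The genes described here are 40 genes of mitosis and of the passage from G2 into mitosis, the G2/M genes. They were chosen by symbol, with no measured value in the rule. All 40 were found among the 28278 genes listed, and all 40 were among the 15150 genes tested. Of these, *MKI67*, *CDK1*, *KIF11*, *KIF20B* and *BUB3* lie on the long arm of chromosome 10 (10q), so counts are given for the 40 genes and for the 35 genes elsewhere.

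To compare the transcriptome of *USP22* knockout and control cells under Sorafenib, a multikinase inhibitor used in liver cancer, polyA RNA-seq was performed on cells labelled HepG2, a human liver cancer cell line. The control group (2 libraries) carried lentiviral Cas9 with a control sgRNA, and the sgUSP22 group (2 libraries) carried lentiviral Cas9 with an sgRNA against *USP22*, the gene of a histone deubiquitinase. Both groups were treated with Sorafenib for 24 h, and no library without the drug is analysed here. The cells were stably infected populations rather than single clones, and no source states that replicates came from separate cultures, so p-values measure the spread between these libraries, which may be technical.

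The libraries held 62030307 to 64728272 counts, where 3 counts, the limit that a count of 0 allows, correspond to 0.0457 to 0.0492 CPM (counts scaled to library size, here with TMM factors), for counting error alone. This limit takes each count as a single read, which may not hold for these counts. *USP22* itself had 16450 and 16537 counts in control and 20279 and 20368 counts in sgUSP22 libraries, a log2 fold change of 0.22 (standard error, SE, 0.034, adjusted p = 0.000394 by edgeR). The message of the targeted gene was thus no lower under the knockout label, and every direction given here follows that label. The study checked its knockout by Western blot, which reads protein. A Cas9 edit may leave the message in place, so these counts cannot check the label. Of 24 hepatocyte markers, 13, including *ALB* and *APOA1*, were at 0 in each library, and 23 had no more than 20 counts in each, so defining liver markers of the labelled cell type were absent. The summed level of these 24 ranged from 3.57 to 3.67 CPM in control and from 2.17 to 2.82 CPM in sgUSP22 libraries. Most of this sum was a single gene, *ASGR1*, at 3.23 and 3.01 CPM in control and 1.90 and 1.64 CPM in sgUSP22 libraries. Of the markers of other cell types, the 8 stellate cell and fibroblast genes summed to 1720 to 1736 CPM in control and 1714 to 1736 CPM in sgUSP22 libraries. Single genes of this list moved in opposite directions, with *DCN* at 10.2 and 9.38 against 79.0 and 77.4 CPM, *LUM* at 70.2 and 59.99 against 182 and 187 CPM, and *VIM* at 1078 and 1067 against 829.7 and 806 CPM. The 5 epithelial genes (*KRT8* and *KRT18* measured, *KRT19* and *CDH1* at 0) summed to 1756 to 1794 and 1315 to 1373 CPM, the 5 immune genes, almost wholly *CD68*, to 73.8 to 74.0 and 44.1 to 47.0 CPM, and the 4 endothelial genes to at most 0.529 CPM. The part of these differences in the results below was not tested.

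Entry into mitosis is driven by the kinase CDK1 with cyclin A and cyclin B, which the CDC25 phosphatases activate. Aurora and Polo-like kinases then direct the building of the spindle, the kinetochore couples chromosomes to its microtubules, and the spindle checkpoint holds back the anaphase-promoting complex until every chromosome is attached. The messages of most of these genes accumulate in G2 and mitosis and fall in G1, so their level in a culture is widely read as a mark of dividing cells. In bulk RNA, fewer cells in G2 and mitosis and less RNA per such cell cannot be told apart.

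Many G2/M promoters carry a cell cycle genes homology region (CHR), with the letters TTTGAA, which is bound by MuvB complexes, and CCAAT boxes, which are bound by NF-Y. Both motifs were searched on both strands in the RefSeq promoters of GRCh38.p14, from 250 bases before to 50 bases after each start, which held 32 of the 40 genes in 41 windows. TTTGAA was found in 63.4% of these windows against 15.2% of all 35116 promoter windows, and CCAAT in 75.6% against 34.6%. Both motifs stood together in 53.7% of the windows of the mitotic genes and in 5.9% of all windows. Within the 60 bases before the start, TTTGAA was found in 34.1% of the windows and in 2.98% of all windows. Among the 23 genes with TTTGAA, 7 were higher, 8 were lower and 8 did not pass the test described below, and among the 9 without it 4 were higher, 3 lower and 2 did not pass, so genes with the same letters moved in either direction. The 8 lower genes with TTTGAA include *CDK1*, *MKI67* and *KIF11* on 10q, where 61.3% of the 426 other tested genes were lower as well. The 6 sequences that follow come from the genes with TTTGAA and the smallest p-values. Of these, 2 are higher (*ECT2* and *CENPF*) and 4 lower, and of the lower ones only *CDC20* lies outside 10q. The sequences run 5′ to 3′ on the strand of the gene, over the 180 bases before the start, or for *CENPF* over 30 bases after it. Matches to TTTGAA and CCAAT on either strand are in capitals. The starts are those of RefSeq, and the *KIF11* stretch lies inside the GENCODE span of that gene given below.
CDK1, chr10:60778151-60778330, plus strand: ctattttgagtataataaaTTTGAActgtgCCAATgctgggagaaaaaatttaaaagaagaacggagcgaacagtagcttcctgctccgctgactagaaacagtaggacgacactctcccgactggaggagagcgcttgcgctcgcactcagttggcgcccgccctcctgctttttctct
ECT2, chr3:172750546-172750725, plus strand: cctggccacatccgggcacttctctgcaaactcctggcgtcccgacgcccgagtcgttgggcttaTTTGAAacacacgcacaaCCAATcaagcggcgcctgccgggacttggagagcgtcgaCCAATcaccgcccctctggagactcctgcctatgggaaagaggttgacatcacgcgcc
CDC20, chr1:43358801-43358980, plus strand: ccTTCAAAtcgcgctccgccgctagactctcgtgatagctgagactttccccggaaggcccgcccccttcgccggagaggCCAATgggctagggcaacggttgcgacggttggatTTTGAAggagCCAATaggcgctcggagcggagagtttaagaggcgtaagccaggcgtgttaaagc
CENPF, chr1:214603215-214603244, plus strand: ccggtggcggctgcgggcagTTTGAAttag
MKI67, chr10:128126424-128126603, minus strand: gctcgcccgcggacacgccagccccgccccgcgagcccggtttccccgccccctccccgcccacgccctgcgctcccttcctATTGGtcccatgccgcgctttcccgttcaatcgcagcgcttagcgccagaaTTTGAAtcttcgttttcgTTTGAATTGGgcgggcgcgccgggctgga
KIF11, chr10:92592950-92593129, plus strand: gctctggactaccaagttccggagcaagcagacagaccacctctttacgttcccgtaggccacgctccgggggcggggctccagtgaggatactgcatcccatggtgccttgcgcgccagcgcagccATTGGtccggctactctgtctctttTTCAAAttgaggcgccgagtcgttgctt
In *CDK1* and in *CDC20*, TTTGAA and a CCAAT box lay a few bases apart, and in *MKI67* one TTTGAA overlapped a CCAAT box on the other strand. A match describes the letters and not a bound site.

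The mitotic genes split in both directions by modest amounts. By the quasi-likelihood test of edgeR, adjusted over all 15150 genes after Benjamini and Hochberg, 14 of the 40 were higher in sgUSP22 libraries at an adjusted p below 0.05 (35.0%), 15 were lower (37.5%) and 11 did not pass. Of all genes tested, 26.8% were higher and 25.8% were lower. Among the 9382 genes counted at least as often as the least counted of the 40, which had a mean of 729 counts, 33.4% were higher and 32.2% lower. The shares of the mitotic genes were close to these, but this set has only a floor and is not matched for depth. A change of at least 1.5-fold was reached by 2 genes upward, *CENPE* and *AURKA* (8.88% of all genes and 6.56% of the well counted genes), and by 2 downward, *CDK1* and *BUB3* (7.25% and 4.75%). With scaling to library size alone, which moved the median of all genes to 0.053, the split was 17 higher and 11 lower. The calls of *CKS2*, *BUB1*, *BUB1B*, *MAD2L1*, *NUF2*, *SPC25*, *TPX2*, *PRC1* and *RACGAP1*, all small changes, were lost when at least 1 of the libraries was left out. Both groups of libraries lay apart in 34 of the 40 genes, with sgUSP22 higher in 16 and lower in 18, against 38.3% and 37.6% of all genes. The median log2 fold change of the 40 genes was -0.014, with a middle range from -0.18 to 0.18, and the median of all genes was 0.00091. The median size of a change without its sign was 0.18 among the 40, 0.23 among the well counted genes and 0.29 among all genes.

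Without the 5 genes on 10q, 14 of 35 were higher, 11 were lower (31.4%) and 10 did not pass, with a median log2 fold change of 0.053. No gene outside 10q was lower by 1.5-fold or more, as *CDK1* and *BUB3* both lie on that arm. The level of the 40 genes was high in both groups, from 679 to 62257 counts in a library, and per kilobase of transcript the mean control level ran from 4.50 CPM for *CENPE* to 210 CPM for *CKS2*, with a median of 57.3.

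**Figure D1:**
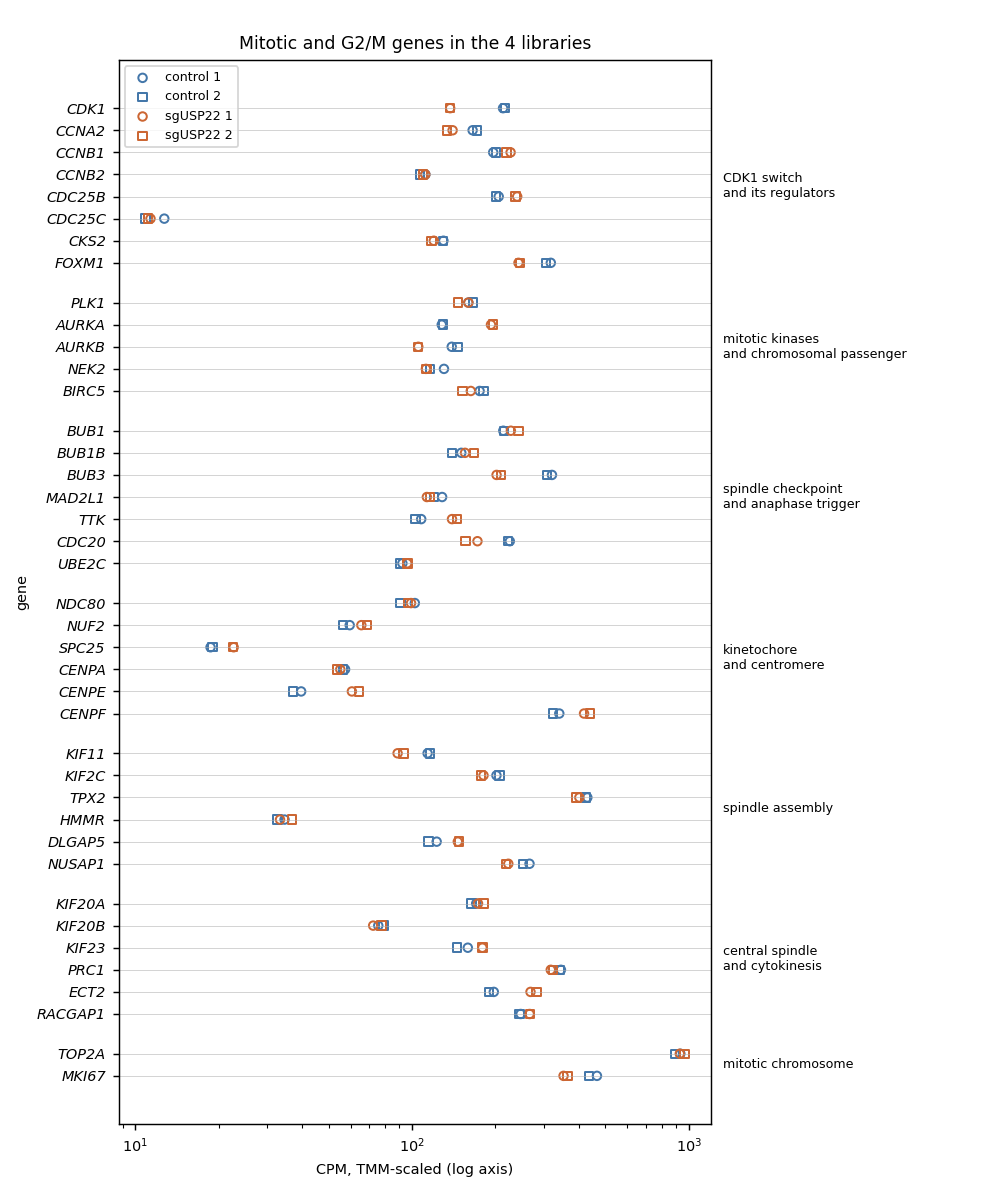
Level of the 40 genes in each of the 4 libraries, in TMM-scaled CPM on a log axis, grouped by role, with circles for replicate 1, squares for replicate 2, blue for control and orange for sgUSP22. *CDK1* and *BUB3* show orange points to the left of blue, *AURKA* and *CENPE* show them to the right, and *TOP2A*, the most abundant, has mixed points between 892 and 964 CPM.

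**Figure D2:**
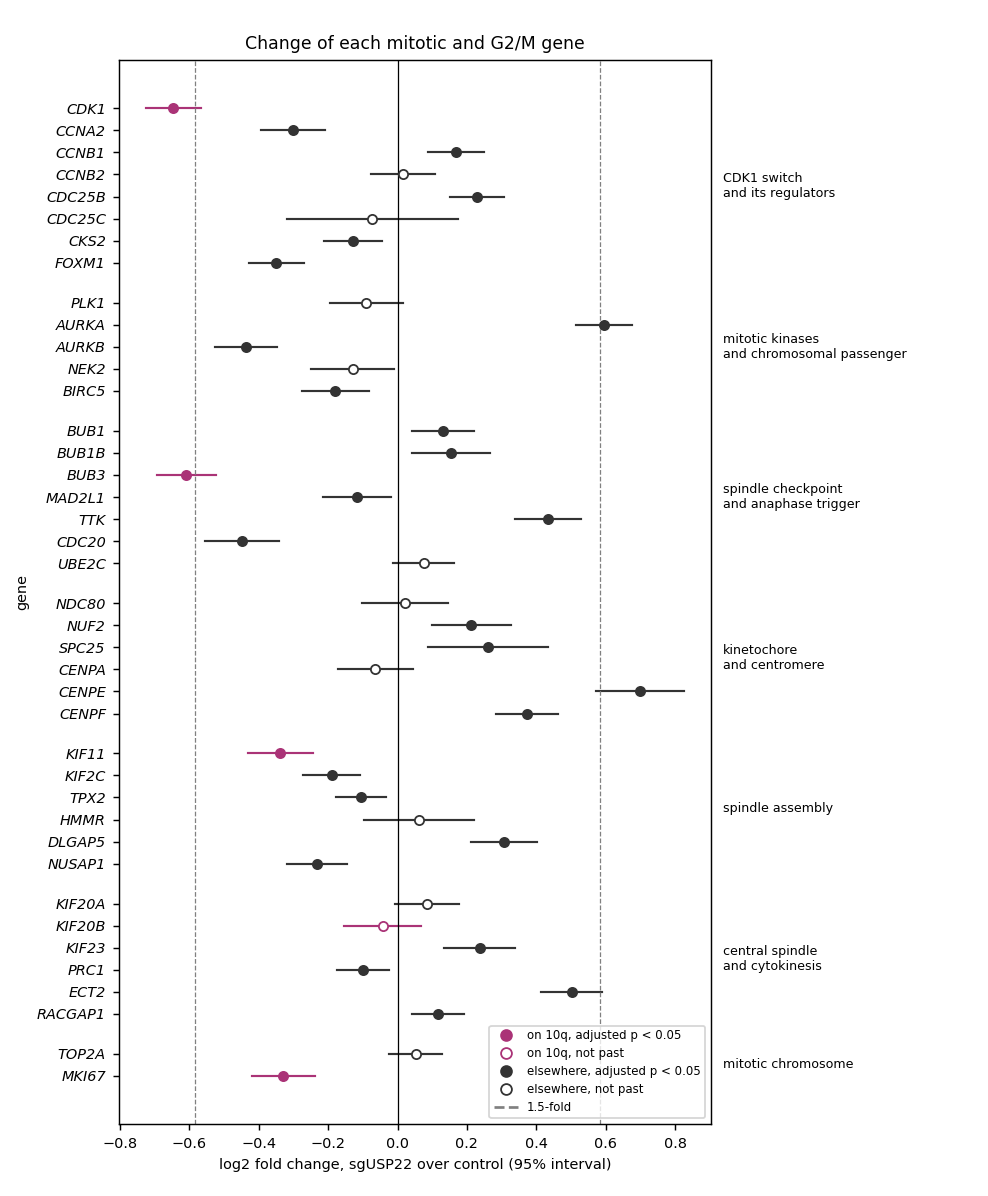
Log2 fold change of each gene, sgUSP22 over control, with its 95% interval from edgeR's quasi-likelihood fit, filled where the adjusted p was below 0.05, purple on 10q, and dashed lines at 1.5-fold. The genes spread on both sides of 0, from -0.65 for *CDK1* to 0.70 for *CENPE*, and no purple point lies above 0.

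Among the 8 genes of the CDK1 switch, 2 were higher and 4 were lower. Of these lower genes, *CDK1* lies on 10q, and *CCNA2*, *FOXM1* and *CKS2* lie elsewhere. For this role and each role below, the shares over all genes were 26.8% higher and 25.8% lower. *CDK1*, the kinase that starts mitosis, had 213 and 216 CPM in control libraries and 137 and 137 CPM in sgUSP22 libraries. Both sgUSP22 values lay far below both control values, and the log2 fold change was -0.65 (SE 0.036, adjusted p = 5.87e-07). *CCNA2*, the gene of cyclin A2, which partners CDK1 in late G2, had 165.5 and 172 CPM in control and 140 and 133.5 CPM in sgUSP22 libraries, a log2 fold change of -0.30 (SE 0.041, adjusted p = 0.000176). *CCNB1*, the gene of cyclin B1, the main mitotic partner, went the other way, with 196 and 201 CPM in control and 227 and 219.8 CPM in sgUSP22 libraries (log2 fold change 0.17, SE 0.037, adjusted p = 0.00328). The groups did not overlap in any of these 3 genes, whereas those of *CCNB2*, the gene of cyclin B2, overlapped at 107 to 112 CPM in all 4 libraries (0.016, 95% interval -0.075 to 0.11, adjusted p = 0.773).

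The phosphatase gene *CDC25B* was higher (log2 fold change 0.23, adjusted p = 0.00039), from 201 and 206 CPM to 237 and 240 CPM. Its relative *CDC25C*, the least counted of the 40, had 10.9 to 12.7 CPM in control and 11.1 to 11.3 CPM in sgUSP22 libraries and did not pass (-0.073, 95% interval -0.32 to 0.17, adjusted p = 0.615). *FOXM1*, a transcription factor of many G2/M genes, had 317 and 305 CPM in control and 242 and 246 CPM in sgUSP22 libraries. Its sgUSP22 values were both lower, with a log2 fold change of -0.35 (SE 0.036, adjusted p = 2.88e-05). *CKS2*, which encodes a small CDK-binding protein and was the most abundant per kilobase, fell by 0.13 on the log2 scale (adjusted p = 0.0158).

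The 5 genes of the mitotic kinases and the chromosomal passenger complex held 1 higher and 2 lower genes. *AURKA*, the Aurora kinase of the spindle poles, had 128 and 129 CPM in control and 193 and 196 CPM in sgUSP22 libraries. The replicates lay within a few CPM of each other and the groups far apart, with a log2 fold change of 0.60 (SE 0.036, adjusted p = 1.03e-06), just past the 1.5-fold threshold. *AURKB*, the Aurora kinase of the chromosomal passenger complex, moved the opposite way, from 139 and 146 CPM to 105 and 105 CPM, a log2 fold change of -0.44 (SE 0.040, adjusted p = 1.33e-05). *BIRC5*, the gene of survivin, which sits in the same complex, was lower as well, with 175 and 181 CPM against 163 and 152 CPM (-0.18, adjusted p = 0.00609). The Polo-like kinase gene *PLK1* had 159.7 and 166 CPM in control and 159.7 and 147 CPM in sgUSP22 libraries and did not pass (-0.090, 95% interval -0.20 to 0.016, adjusted p = 0.138). Nor did *NEK2*, the gene of a centrosome kinase (-0.13, 95% interval -0.25 to -0.0097, adjusted p = 0.0668).

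The 7 genes of the spindle checkpoint and the anaphase trigger were divided, with 3 higher and 3 lower (2 and 3 after the GC and length correction described below). Of the lower genes, *BUB3* lies on 10q, and *CDC20* and *MAD2L1* lie elsewhere. *TTK*, the gene of the kinase MPS1 that starts the checkpoint signal, had 108 and 103 CPM in control and 139 and 145 CPM in sgUSP22 libraries, a log2 fold change of 0.43 (SE 0.042, adjusted p = 2.02e-05). The checkpoint kinase gene *BUB1* (0.13, adjusted p = 0.0184) and *BUB1B*, the gene of BUBR1 (0.16, adjusted p = 0.0255), were higher by small amounts. *BUB3*, the gene of the adaptor that carries both to the kinetochore, had 320 and 308 CPM in control and 202 and 210 CPM in sgUSP22 libraries. This was a log2 fold change of -0.61 (SE 0.038, adjusted p = 1.22e-06), with the groups far apart. *CDC20*, which activates the anaphase-promoting complex, had 225.5 and 222 CPM in control and 172 and 156 CPM in sgUSP22 libraries, a log2 fold change of -0.45 (SE 0.048, adjusted p = 3.83e-05). As counted, *CDC20* was the most lowered of the genes outside 10q, but after the correction it had -0.28 and *CCNA2* was the most lowered, at -0.39. The product of *MAD2L1* holds CDC20 inactive, and this gene was near the threshold (-0.12, adjusted p = 0.0459, and 0.0746 with DESeq2). *UBE2C*, the gene of an ubiquitin-conjugating enzyme of the anaphase-promoting complex, did not pass (0.075, 95% interval -0.014 to 0.16, adjusted p = 0.142).

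Of the 6 kinetochore and centromere genes, 4 were higher and none was lower at the adjusted threshold, with a median log2 fold change of 0.24, against 26.8% higher and 25.8% lower over all genes. After the same correction, 2 of the 6 were higher and none lower, with a median of 0.095. *CENPE*, the gene of the kinesin that moves chromosomes to the spindle equator, had 39.7 and 37.1 CPM in control and 60.6 and 64.2 CPM in sgUSP22 libraries. This was the highest fold change of the 40, 0.70 on the log2 scale (SE 0.057, adjusted p = 6.46e-06). *CENPF*, a large kinetochore protein gene, had 340 and 323 CPM in control and 418 and 440 CPM in sgUSP22 libraries (0.37, SE 0.040, adjusted p = 3.9e-05). In both genes the sgUSP22 libraries were above both controls. Of the NDC80 complex, which grips microtubules, *NUF2* (0.21, adjusted p = 0.00552) and *SPC25* (0.26, adjusted p = 0.0174) were higher, whereas *NDC80* overlapped between the groups at 90.9 to 102 CPM (0.020, 95% interval -0.10 to 0.14, adjusted p = 0.788). *CENPA*, the gene of the histone variant that marks the centromere, did not pass (-0.064, 95% interval -0.17 to 0.044, adjusted p = 0.298).

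The 6 spindle assembly genes held 1 higher and 4 lower genes. Of the lower genes, *KIF11* lies on 10q, and *NUSAP1*, *KIF2C* and *TPX2* lie elsewhere. *KIF11*, the gene of the motor that pushes the spindle poles apart, had 114 and 116 CPM in control and 88.7 and 93.2 CPM in sgUSP22 libraries, a log2 fold change of -0.34 (SE 0.042, adjusted p = 0.000104). *NUSAP1*, the gene of a microtubule-bundling protein, fell by 0.23 (adjusted p = 0.000628), *KIF2C*, the gene of a microtubule-depolymerizing kinesin, by 0.19 (adjusted p = 0.00157), and *TPX2*, the gene of the activator of AURKA, by 0.11 (adjusted p = 0.0208), all on the log2 scale. *DLGAP5*, the gene of the spindle protein HURP, went the other way, from 123 and 115 CPM to 146 and 147.5 CPM (0.31, SE 0.043, adjusted p = 0.000203). *HMMR*, the gene of a spindle pole protein, overlapped between the groups at 32.6 to 36.8 CPM (0.062, 95% interval -0.096 to 0.22, adjusted p = 0.499).

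Of the 6 genes of the central spindle and cytokinesis, 3 were higher and 1 was lower, or 2 and 2 after the correction. The lower gene added by the correction was *KIF20B*, which lies on 10q. *ECT2*, the gene of the RhoA activator that positions the cleavage furrow, had 197 and 190 CPM in control and 268 and 281 CPM in sgUSP22 libraries, a log2 fold change of 0.50 (SE 0.039, adjusted p = 4.89e-06). *KIF23* (0.24, adjusted p = 0.00165) and *RACGAP1* (0.12, adjusted p = 0.0153), which encode the subunits of centralspindlin, the complex that recruits ECT2, were higher with it. *PRC1*, the gene of the protein that bundles the central spindle, was lower by a small amount (-0.099, adjusted p = 0.0293). The kinesin genes *KIF20A* (0.085, 95% interval -0.0062 to 0.18, adjusted p = 0.107) and *KIF20B* (-0.043, 95% interval -0.15 to 0.069, adjusted p = 0.506) did not pass.

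Both remaining genes act on the mitotic chromosome, and *MKI67* of these lies on 10q. *TOP2A*, the gene of the topoisomerase that untangles sister chromatids, was the most abundant of the 40, with 932 and 892 CPM in control and 928 and 964 CPM in sgUSP22 libraries. The groups overlapped (0.053, 95% interval -0.024 to 0.13, adjusted p = 0.227). *MKI67*, the gene of the proliferation marker Ki-67, had 466 and 435 CPM in control and 353 and 364 CPM in sgUSP22 libraries, and both sgUSP22 values lay below both controls (-0.33, SE 0.040, adjusted p = 8.96e-05).

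On 10q, 4 of the 5 mitotic genes were lower and none was higher, with a median log2 fold change of -0.34. On hg38 in GENCODE v44, *CDK1* spans 60778331 to 60794852, *KIF20B* 89701590 to 89774939, *KIF11* 92574105 to 92655395, *BUB3* 123154402 to 123170467 and *MKI67* 128096659 to 128126423 of chromosome 10. The other genes on the same arm moved likewise. Of the 426 other tested genes that start beyond 40 Mb on chromosome 10, 261 were lower (61.3%) and 28 were higher, with a median of -0.41, whereas the 124 genes before 40 Mb had a median of 0.067. Each gene was therefore set beside the median of the other tested genes within 5 Mb. *KIF11* at -0.34 was close to its 61 neighbours, which had a median of -0.37. *CDK1* was lower than the median of its 20 neighbours (-0.31) by 0.33 on the log2 scale, and *BUB3* was lower than that of its 46 neighbours (-0.40) by 0.21. *MKI67* was 0.23 above the median of its 33 neighbours (-0.55), and *KIF20B*, which did not pass the test, was 0.32 above that of its 52 neighbours (-0.36). These differences between a gene and its neighbours were taken as counted and were not tested. After the GC and length correction described below, all 5 genes were lower, with a median of -0.55, against -0.47 for the 426 other genes. *KIF20B* then had -0.38 and *MKI67* -0.49. Outside 10q, the 6 genes of largest change had neighbour medians of 0.024 for *CENPE*, 0.19 for *AURKA*, 0.18 for *ECT2*, -0.076 for *CDC20*, -0.066 for *AURKB* and 0.15 for *TTK*. These 6 were picked for the size of their change, so a median nearer to 0 than the gene says nothing about the region.

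**Figure D3:**
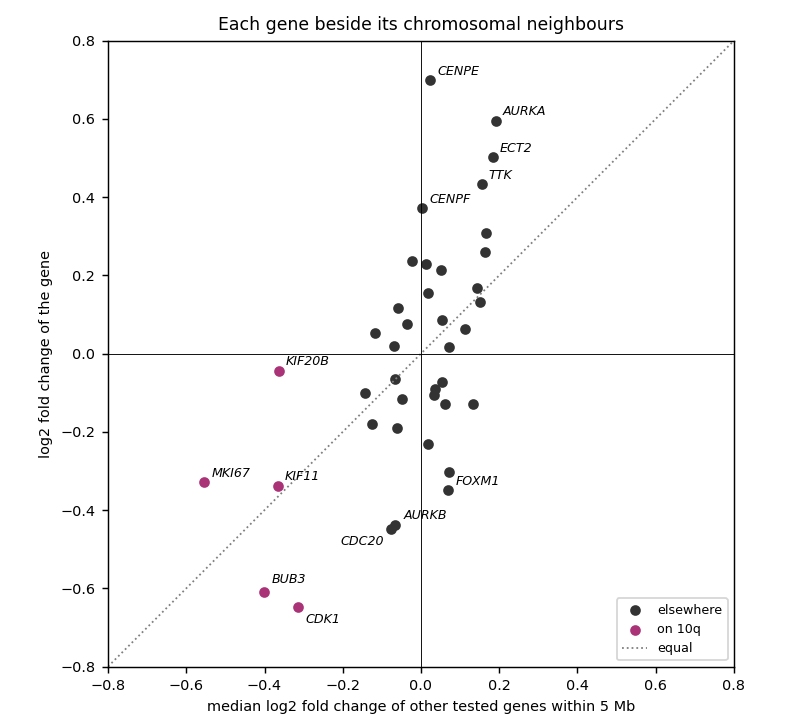
Log2 fold change of each of the 40 genes against the median log2 fold change of the other tested genes within 5 Mb of it, with purple points on 10q and a dotted line where both are equal. The 5 purple points lie at neighbour medians from -0.55 to -0.31, left of the points of all other genes, which lie within 0.2 of 0 on that axis.

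The changes also moved with the base composition of the transcript. Across the 40 genes, the log2 fold change and the GC content of the transcript had a Pearson r of -0.32 and a Spearman rho of -0.33. These were -0.56 and -0.52 across the 35 genes outside 10q, and -0.13 and -0.25 across all 14384 genes with a value. With the log2 transcript length, r was 0.11 and rho was 0.13 across the 40, 0.38 and 0.31 across the 35, and 0.15 and 0.23 across all. Genes are not independent replicates, and the values share the same 4 libraries. The median GC content was 41.2% in the 14 higher genes and 46.6% in the 15 lower genes, against 48.9% in all genes. After lowess trends with GC content and length were removed from each library, 10 of the 40 genes were higher and 18 lower, with a median of -0.082, against 23.4% and 25.0% of all genes. Of the 14 higher genes, 9 were again higher and 5, *BUB1*, *BUB1B*, *NUF2*, *SPC25* and *RACGAP1*, did not pass. All 15 lower genes were again lower, and they were joined by *NEK2*, *KIF20B* and *TOP2A*, while *UBE2C* became higher (0.22, adjusted p = 0.000957).

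Several sizes changed with the correction. *CENPE*, with 35.1% GC, went from 0.70 to 0.33 on the log2 scale, *ECT2* from 0.50 to 0.26, *TTK* from 0.43 to 0.21, *CENPF* from 0.37 to 0.11 and *DLGAP5* from 0.31 to 0.12, and all 5 were higher in both. *AURKA* was nearly unmoved, at 0.58, just under the 1.5-fold threshold, so that no gene of the 40 was higher by 1.5-fold after the correction. *CDC25B* moved up, from 0.23 to 0.36, and *KIF23* down, from 0.24 to 0.13. The fall was deeper for *CDK1* (-0.84), *BUB3* (-0.83), *KIF11* (-0.55), *MKI67* (-0.49) and *KIF20B* (-0.38, adjusted p = 6.67e-05). It was also deeper for *CCNA2* (-0.39), *MAD2L1* (-0.35) and *NUSAP1* (-0.29), and it was smaller for *CDC20* (-0.28), *AURKB* (-0.26), *FOXM1* (-0.25) and *BIRC5* (-0.12). The correction removes any difference between the groups that goes with GC content or length, whatever its cause. The part of GC content and length in these results was not tested otherwise. Without the 10q genes, the corrected counts were 10 higher and 13 lower of 35, with a median of 0.034.

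**Figure D4:**
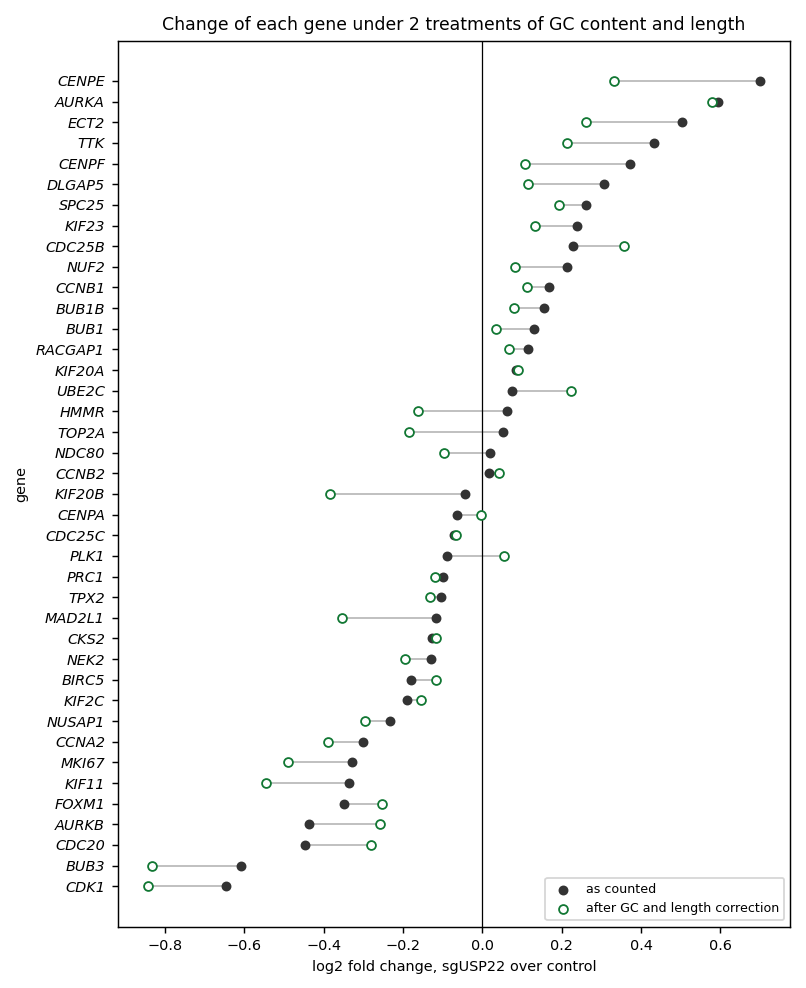
Log2 fold change of each gene, sgUSP22 over control, as counted (filled) and after removal of GC content and length trends (open), ordered by the value as counted. *CENPE*, *ECT2* and *TTK* move toward 0, *CDK1*, *BUB3* and *KIF20B* move down, and *AURKA* stays near 0.58.

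To place the 40 genes among their partners, related lists were compared by the same test. For each list below, the shares over all genes were 26.8% higher and 25.8% lower, or 33.4% and 32.2% among the well counted genes. After the GC and length correction they were 23.4% and 25.0% of all genes. The lists shared no gene with the 40. The spindle and cytokinesis list of 32 other genes had 19 higher (59.4%) and 5 lower (15.6%), with a median of 0.18 (0.13 after the GC and length correction, with 16 higher and 4 lower). *ASPM*, the gene of a spindle pole protein, rose from 132 and 138 CPM to 250 and 277 CPM, a log2 fold change of 0.96 (0.60 corrected), and *BORA*, an activator of AURKA, reached 0.69 (0.54 corrected). Of the 8 condensin genes, which compact mitotic chromosomes, 7 were higher by 0.11 to 0.34 and only *NCAPH2* did not pass, but after the correction 1 was higher, with a median of 0.039.

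Of 32 other kinetochore genes, 12 were higher (37.5%) and 8 lower (25.0%), with a median of 0.10 that was -0.0056 after the correction. *SKA3*, a partner of the NDC80 complex, rose from 15.6 and 14.7 CPM to 34.4 and 32.3 CPM (1.14, adjusted p = 2.26e-06, 1.03 corrected), and *CENPC*, a base of the kinetochore, reached 1.01 (0.72 corrected). *KNL1*, which docks BUB1, reached 0.60 (0.26 corrected), whereas *ZWINT* on 10q had -0.62. The 17 genes of the anaphase-promoting complex held 3 higher and 6 lower genes, *ANAPC16* on 10q with -0.64 among them. The 16 cohesin genes held 6 higher and 5 lower, which became 3 higher and 8 lower after the correction, with *SGO2*, which protects centromeric cohesin, at 0.77 (0.49 corrected). All 5 listed partners on 10q were lower, namely *ANAPC16*, *ZWINT*, *SMC3* (-0.45), *CEP55* (-0.40) and *WAPL* (-0.31). Of the 178 elsewhere, 63 were higher (35.4%) and 50 lower (28.1%), or 50 higher and 54 lower after the correction.

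The list of G2 brakes and checkpoint genes, which also holds some genes that promote entry into mitosis, had 20 tested genes. Of these, 5 were higher (25.0%) and 7 lower (35.0%), or 6 and 9 after the correction, so this is not a count of inhibitors alone. *GADD45B*, a stress-induced inhibitor of CDK1, fell from 121 and 122 CPM to 28.6 and 29.6 CPM, a log2 fold change of -2.06 (SE 0.046, adjusted p = 1.85e-09), and *GADD45A* had -0.79. *PKMYT1*, which phosphorylates and inhibits CDK1, had -0.59 (-0.36 corrected) and was named after its value was seen. *CDKN1C*, the gene of the CDK inhibitor p57, rose from 32.4 and 31.4 CPM to 66.5 and 61.9 CPM (1.01, adjusted p = 6.75e-07), and the phosphatase gene *CDC14A* had 0.60 (0.46 corrected). Among 22 regulators of the G2/M promoters, 6 were higher and 5 lower (5 and 7 after the correction), with 99 and 102 counts in control and 385 and 384 counts in sgUSP22 libraries for *E2F8*, a repressor of the E2F family (1.86, adjusted p = 1.05e-05), and a log2 fold change of 0.60 for *LIN37*, a subunit of MuvB.

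The S phase genes held more lower than higher genes, with 5 of 36 higher and 19 lower (52.8%, against 25.8% of all genes and 32.2% of the well counted genes) and a median of -0.13 (6 higher and 18 lower after the correction, median -0.11). Both that passed 1.5-fold were higher, the cyclin E genes *CCNE2* (1.18, adjusted p = 6.81e-06) and *CCNE1* (1.03, adjusted p = 0.00091). The difference between the S phase and the mitotic list was not tested.

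**Figure D5:**
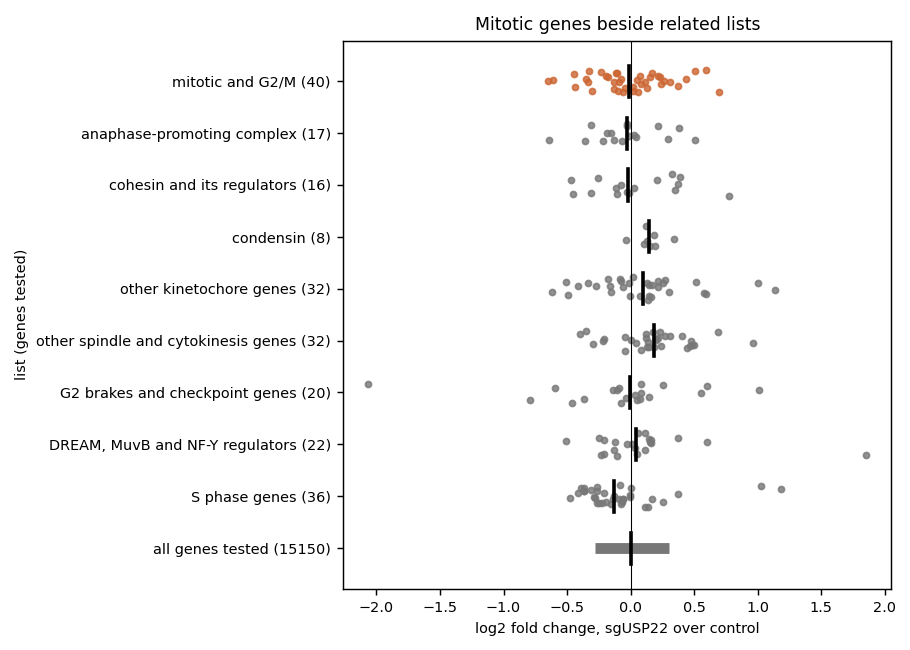
Log2 fold change, sgUSP22 over control, of the 40 mitotic and G2/M genes (orange) and of the genes of each related list (grey), 1 point a gene, with a vertical bar at the median. The horizontal bar for all genes spans the middle range from -0.28 to 0.30, the medians run from -0.13 for S phase to 0.18 for other spindle genes, and *GADD45B* lies farthest left at -2.06.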

How the data were processed

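PolyA RNA of 4 libraries, 2 control and 2 sgUSP22, was sequenced on the DNBSEQ-G400. The authors aligned reads to hg38 with HISAT2 2.2.1 and deposited whole-number gene counts from StringTie 2.2.1, not scaled to library size, and their notes also name DESeq2 1.34.0. The annotation and strand setting are not given in the sources used here, so antisense overlap cannot be told apart. All columns were assigned by name.

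The 40 genes, roles and related lists were chosen with earlier results of these data known. Counts were compared in R 4.3.3 with edgeR 4.0.16 (TMM factors, the filter filterByExpr at 10 counts, then glmQLFit and glmQLFTest) and Benjamini-Hochberg adjustment. A gene was called at an adjusted p below 0.05, and the 1.5-fold threshold follows the study. Named genes are the 40, *USP22* and, per related list, at most 4 genes past both thresholds with the largest change. *SMC3*, *CEP55* and *WAPL* (listed genes on 10q), *NCAPH2*, *PKMYT1* and the markers with values were named after their values were seen. GC content and length came from the GENCODE v44 canonical transcript for 14384 of 15150 genes. For each library, lowess trends (span 0.3) were fitted to the deviation of each gene's log2 CPM from its mean over the 4 libraries, and removed. This also removes any difference between the groups that goes with GC content or length. In simulated data drawn from these libraries, all 123 changed genes with at least 729 mean counts were recovered at 2-fold, with 5 false calls among 9382 genes. No gene of the 40 changed by 2-fold, so the simulation does not tell how well their smaller changes are recovered. The mean chi-square per gene between replicates was 7.3 in control and 7.6 in sgUSP22 libraries, with each count taken as a single read. The smallest nonzero count of a marker gene was 3 (*CYP2E1*), so a count may not stand for a single read, and this value cannot be set against sampling noise. Alternatives were DESeq2 1.42.0, RLE factors, library size alone, other filters, the replicate block, a test against 1.5-fold, the GC and length correction, and fits without each library in turn.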

Additional observations from a re-analysis of the deposited data

How the results depend on the processing

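Of 480 comparisons of the fold change of 1 of the 40 genes with another setting, in 396 neither the sign nor the call at the adjusted p threshold changed, and in 84 at least 1 of them did. Counts and medians over the genes are given apart from these. A test against 1.5-fold, stricter by construction, left 0 of the 40 genes past the threshold in either direction, and 0 outside 10q. After the GC and length correction 0 genes were called higher by 1.5-fold and the median of the 40 was -0.082. With library size alone, which moved the median of all genes to 0.053, 1 gene was called lower by 1.5-fold, 7 outside 10q were lower, and the medians were 0.039 for the 40 and 0.11 without 10q. With 1 library left out, where a lone library is assumed to vary like the other group, genes called higher by 1.5-fold ranged from 1 (without sgUSP22 replicate 2, *AURKA* at 0.583) to 2 and those lower from 1 (without control replicate 1, *BUB3* at -0.58) to 2. Outside 10q the lower genes ranged from 7 (without control replicate 1 or sgUSP22 replicate 2) to 10, and the median of the 40 from -0.039 to 0.045 (without control replicate 1).

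The direction reversed after the GC and length correction for *PLK1* (0.054), *NDC80* (-0.098), *HMMR* (-0.16) and *TOP2A* (-0.18, past the threshold), and with library size alone for *KIF20B* (0.0092). With a library left out, *CCNB2* ranged from -0.016 to 0.048, *CDC25C* from -0.18 to 0.043, *NDC80* from -0.063 to 0.11 and *HMMR* from -0.012 to 0.12, none past the threshold in any of these fits. Small changes lost the threshold without a library: *PRC1* without any of the 4 (adjusted p from 0.0545 to 0.0968), *RACGAP1* without any but control replicate 1 (0.0583 to 0.0731), *CKS2* (0.0519 to 0.0778) without any but sgUSP22 replicate 1, *MAD2L1* (0.0697 to 0.303) without any but control replicate 2, *SPC25* without either control (0.0541 and 0.0684), *BUB1* (0.0543 and 0.146) and *TPX2* (0.0681 and 0.118) without control replicate 1 or sgUSP22 replicate 2, *BUB1B* (0.158 and 0.175) without control replicate 2 or sgUSP22 replicate 2, and *NUF2* (0.0616) without sgUSP22 replicate 2. *PLK1* passed without sgUSP22 replicate 1 (-0.17, adjusted p = 0.0189) and *NEK2* without control replicate 2 (-0.21, adjusted p = 0.00354). *MAD2L1* was also lost with DESeq2 (adjusted p = 0.0746), no filter (0.0997) and library size alone (0.251), *BUB1B* with no filter (0.0903), and *CKS2* (0.114), *TPX2* (0.184) and *PRC1* (0.263) with library size alone. The cause of these changes was not tested.

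No pairing by replicate number was found, since same-numbered libraries deviated with a correlation of 0.042 and no label gives a shared batch. With the number as a block, 14 of the 40 genes were higher and 16 lower, *NEK2* being the gene added (-0.13, adjusted p = 0.0359). The depth and 2 libraries a group gave SEs from 0.033 to 0.11 on the log2 scale, with a median of 0.041, which limits what can be said of the smallest changes.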
